A study of Mus musculus with 27 samples.

Results

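Primed epiblast cells are the pluripotent cells that have left the naive state of the early embryo but have not yet chosen a germ layer. The 9 genes described here mark or run that state and its exit. They were chosen by name and matched by symbol to 1 Ensembl gene each, 9 of the 48795 genes listed. Pou5f1 encodes Oct4, the POU factor required for pluripotency in both naive and primed cells. Otx2 and Pou3f1 (Oct6) are homeodomain factors that accompany the move from naive to primed cells, Fgf5 is the classic secreted marker of the primed epiblast, Zic2 is a zinc finger factor, and Utf1 is a chromatin-bound factor and a known target of Oct4. Sall4 is a zinc finger factor of stem and embryonic cells. Lin28a and Lin28b encode RNA-binding proteins that bind precursors of the let-7 microRNAs and hold back their maturation. Mature let-7 in turn represses messages of growth and embryonic genes, Lin28a and Lin28b among them.

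Bulk RNA was sequenced from cultures led from mouse embryonic stem cells toward the gonad, in 9 groups of 3 libraries. All cells carried Tesco-CFP, a CFP reporter under a Sox9 enhancer, and R26-rtTA, the doxycycline-dependent activator, and came from 1 XY clone (clone 7) of the F1 strain C57BL/6 x CBA, so the results hold for that clone. The groups were embryonic stem cells (ESC), epiblast-like cells (EpiSC; 60 h in bFGF at 12 ng/ml, Activin A at 20 ng/ml and 1% serum replacement), and early mesoderm (M; 36 h in bFGF at 20 ng/ml, BMP4 at 10 ng/ml and the PI3-kinase inhibitor LY294002 at 10 µM). Then came 5 intermediate mesoderm cultures of 3.5 days (IM1 to IM5), all in bFGF at 5 ng/ml and BMP4 at 20 ng/ml. IM1 held nothing further, IM3 held retinoic acid at 100 nM, IM2 held retinoic acid and Activin A at 10 ng/ml, IM4 held retinoic acid and the Wnt pathway agonist CHIR99021 at 0.3 µM, and IM5 held all 3 agents. The last group, induced Sertoli-like cells (iSLC), was made from IM3 cells with doxycycline-induced lentiviral Nr5a1 and Dmrt1 in a Sertoli medium, and was sorted for CFP, so virus, medium, time and sort cannot be told apart in it. The labels do not say whether the 3 libraries of a group came from separate cultures, and p-values measure only the spread between them.

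Total expected counts ran from 35923040 to 84876603 per library, and all 9 genes passed the low-count filter that left 20839 genes for testing. Markers of the labelled states were checked. Of 12 naive pluripotency genes 11 were called lower in EpiSC than in ESC, and Dppa3 was called higher, at a log2 fold change of 1.02. Of 5 early mesoderm genes 4 were called higher in M than in EpiSC, and Eomes, at a log2 fold change of 0.67, rose by less than 2-fold. The forced Nr5a1 had a mean of 93.8 TPM (a level scaled by transcript length and library total) in iSLC against at most 0.13 TPM in any other group. The other forced gene, Dmrt1, had a mean of 213.2 TPM in iSLC and 0.45 TPM in IM3. Of 7 Sertoli markers these 2 were called higher in iSLC and none of the other 5 was, with Sox9 at 24.8 TPM in iSLC against 40.0 TPM in IM3 and log2 fold changes from -1.48 (Cst9) to 1.43 (Dhh). The 7 markers of intermediate mesoderm and genital ridge summed to 478.3 to 512.9 TPM in IM3 and 189.8 to 225.3 TPM in M. Gata4 (a mean of 339.7 TPM) and Wt1 (148.8 TPM) made up most of the IM3 sum. The rest were at 1.91 TPM (Emx2) or less, with Osr1 at 1.11, Lhx1 at 0.44 and Pax2 at 0.04 TPM. Against M, 3 of the 7 were called higher in IM3, and Lhx1 was called lower, at a log2 fold change of -7.19. The libraries also separated by red blood cell genes. The summed level of 6 such genes was 11.7 to 91.0 TPM in ESC, M, IM3 and IM4 (12 libraries) and 1.57 to 4.54 TPM in the other 5 groups (15 libraries), and this division runs along several of the comparisons below. In bulk RNA, fewer cells of a type and less RNA per cell cannot be told apart.

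Oct4 was the most abundant of the 9 messages in ESC and EpiSC. Pou5f1 stood at 1569, 1602 and 1652 TPM in the ESC libraries and at 1703, 1704 and 1604 TPM in EpiSC, and these ranges overlapped. It stood at 176.0, 184.9 and 178.9 TPM in M, at 37.3, 37.4 and 40.5 TPM in IM1 and at 3.77, 2.92 and 6.83 TPM in iSLC. In order of mean level Pou5f1 ran EpiSC, ESC, M, IM1, IM5, IM2, IM4, IM3 and iSLC, and the neighbours EpiSC and ESC, IM1 and IM5, and IM4 and IM3 overlapped.

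The primed markers peaked in EpiSC, with a sharper peak for Fgf5 and Otx2 than for Pou3f1, Zic2 and Utf1. Fgf5 stood at 120.0, 117.4 and 120.9 TPM there, against 2.88, 3.42 and 3.73 TPM in ESC and 12.9 ± 1.68 TPM (SD, n = 3) in M, and was below 2 TPM in every later library. Otx2 stood at 98.5, 98.2 and 95.0 TPM in EpiSC, at 10.6 to 11.5 TPM in ESC and at 5.17 to 8.13 TPM in M. Pou3f1 reached 24.0, 29.0 and 28.7 TPM in EpiSC, Zic2 69.2, 69.6 and 71.3 TPM, and Utf1 555.0, 613.0 and 552.8 TPM. Their means in ESC were 6.11 TPM for Pou3f1, 24.6 TPM for Zic2 and 362.9 TPM for Utf1. In M they were 3.56, 33.5 and 13.6 TPM in that order. For these 5 genes the lowest EpiSC library lay above every library of all other groups.

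Lin28a, Lin28b and Sall4 had another order, with M at the top. Lin28a stood at 281.2, 245.3 and 286.3 TPM in M, above the 197.1, 191.9 and 187.3 TPM of EpiSC and the 137.0 to 151.8 TPM of ESC. Lin28b stood at 30.2, 25.9 and 30.5 TPM in M and 26.1, 24.8 and 26.4 TPM in EpiSC, which overlapped. Sall4 stood at 180.8, 151.1 and 183.9 TPM in M and at 145.2 to 176.3 TPM in ESC, which also overlapped. The panels of level by library show both orders.

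**Figure D1:**
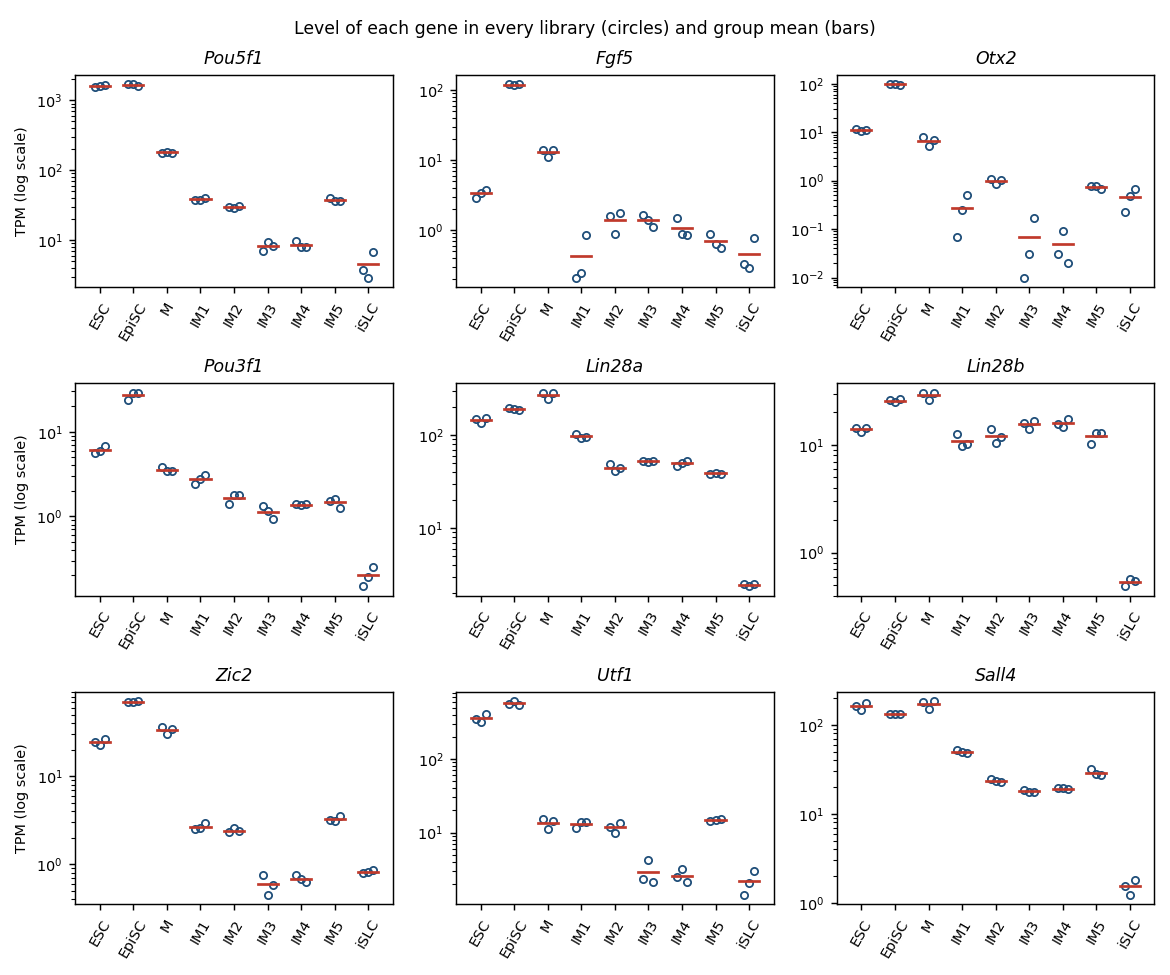
TPM on a log scale (vertical axis) of each of the 9 genes in the 9 groups (horizontal axis), with 1 circle per library and a bar for the mean of 3. Fgf5, Otx2, Pou3f1, Zic2 and Utf1 peak in EpiSC, while Lin28a stays at 245.3 TPM or more in the M libraries and drops to 2.39 to 2.53 TPM in iSLC.

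The comparison of EpiSC with ESC asks what changed on entry into the primed state. A gene was called where the edgeR quasi-likelihood test gave a Benjamini-Hochberg adjusted p of at most 0.01 over all genes tested, the fold was at least 2, and the mean normalised read count was at least 100 over all libraries and in a compared group. Of the 9 genes 4 were called higher in EpiSC and 0 lower, against 3.75% of all genes tested called higher. Fgf5 rose from a normalised read count of 264.6 ± 43.1 (SD, n = 3) to 10120 ± 133.1, a log2 fold change of 5.24 ± 0.15 (SE; edgeR adjusted p = 4.74e-20). Otx2 rose by a log2 fold change of 3.19 ± 0.16, Pou3f1 by 2.19 ± 0.11 and Zic2 by 1.56 ± 0.07, and no library of the groups overlapped for any of these 4 genes. Here and below, overlap of libraries only describes the genes named, and the share of all genes tested without overlap was not counted. Lin28b at 0.92 ± 0.09, Utf1 at 0.71 ± 0.12 and Lin28a at 0.42 ± 0.06 passed the p but not the fold, as did Sall4 at -0.29 ± 0.06. Pou5f1 had a log2 fold change of 0.10 ± 0.12 (edgeR adjusted p = 0.474), with overlapping libraries.

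Other genes of the primed state moved with Fgf5. Of 13 measured, 8 were called higher in EpiSC and 0 lower, with Fgf8, an epiblast and streak ligand, at a log2 fold change of 6.04 and the Wnt effector Lef1 at 2.93. Of 6 other genes shared by naive and primed cells 3 were called lower, with Sox2 at -1.44 and Dppa2 at -1.28. Early mesoderm markers summed to 369.3 to 392.4 TPM in EpiSC and 7.91 to 9.11 TPM in ESC, and red blood cell genes to 1.57 to 2.31 and 11.7 to 91.0 TPM. Of 9 endoderm markers 5 were called higher, with Cer1 at 8.44 and Gsc at 5.96, and their sums were 89.3 to 100.1 TPM in EpiSC and 13.7 to 15.1 TPM in ESC. The part of these markers in the rise of the primed genes was not tested.

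Mesoderm induction divided the 9 genes. In M against EpiSC 6 were called lower and 0 higher, against 7.72% of all genes tested called lower. Utf1 had the largest fold of the 9, from a normalised read count of 24190 ± 1582 (SD, n = 3) to 538.4 ± 75.2, a log2 fold change of -5.49 ± 0.15 (SE; edgeR adjusted p = 4.28e-21). Otx2 changed by -3.91 ± 0.16, Fgf5 by -3.30 ± 0.13, Pou5f1 by -3.30 ± 0.13, Pou3f1 by -3.00 ± 0.12 and Zic2 by -1.20 ± 0.07 on the log2 scale. The EpiSC and M libraries did not overlap for any of these 6 genes.

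The other 3 genes changed by less than 2-fold in the same libraries. Lin28a had a log2 fold change of 0.45 ± 0.06 and Sall4 of 0.31 ± 0.06, both past the p and under the 2-fold minimum, and Lin28b of 0.10 ± 0.09 (edgeR adjusted p = 0.328), which became -0.125 with an offset for GC content. All 6 genes shared by naive and primed cells were called lower in M, with Dppa2 at -5.45 and Dppa4 at -4.65, and 10 of the 13 other primed genes were, with Foxd3 at -6.68 and Sox3 at -3.57. Lef1, at 1.41, was called higher. Red blood cell genes summed to 1.57 to 2.31 TPM in EpiSC and 42.4 to 80.0 TPM in M, and their part in these results was not tested.

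From M to IM3 all 9 genes were called lower, against 5.66% of all genes tested called lower. Zic2 fell from a normalised read count of 2667 ± 179.9 (SD, n = 3) to 42.2 ± 6.98, a log2 fold change of -5.96 ± 0.10 (SE; edgeR adjusted p = 3.28e-25). Pou5f1 changed by -4.67 ± 0.16, Fgf5 by -3.39 ± 0.18, Sall4 by -3.38 ± 0.07, Lin28a by -2.61 ± 0.06, Utf1 by -2.44 ± 0.21, Pou3f1 by -1.82 ± 0.14 and Lin28b by -1.08 ± 0.09. Otx2 fell from 531.4, 360.7 and 443.9 normalised counts to 1.05, 1.49 and 2.91, so its log2 fold change of -7.91 ± 0.42 rests on a few reads in IM3. The smallest change, that of Lin28b, was close to the 2-fold minimum and was no longer called with an offset for GC content (-0.98) or with limma on log2(TPM + 1) (-0.85). Other markers moved over the same step. All 5 early mesoderm markers were called lower, from a sum of 936.9 to 1026 TPM in M to 1.85 to 2.44 TPM in IM3, and 5 of 8 germ cell markers were called lower. Endoderm markers summed to 59.3 to 64.5 TPM in M and 150.2 to 172.7 TPM in IM3, with Afp at a log2 fold change of 10.46 and Ttr at 5.79 and with Gsc at -6.09 and Cxcr4 at -4.38. The part of these markers in the fall of the 9 genes was not tested.

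**Figure D2:**
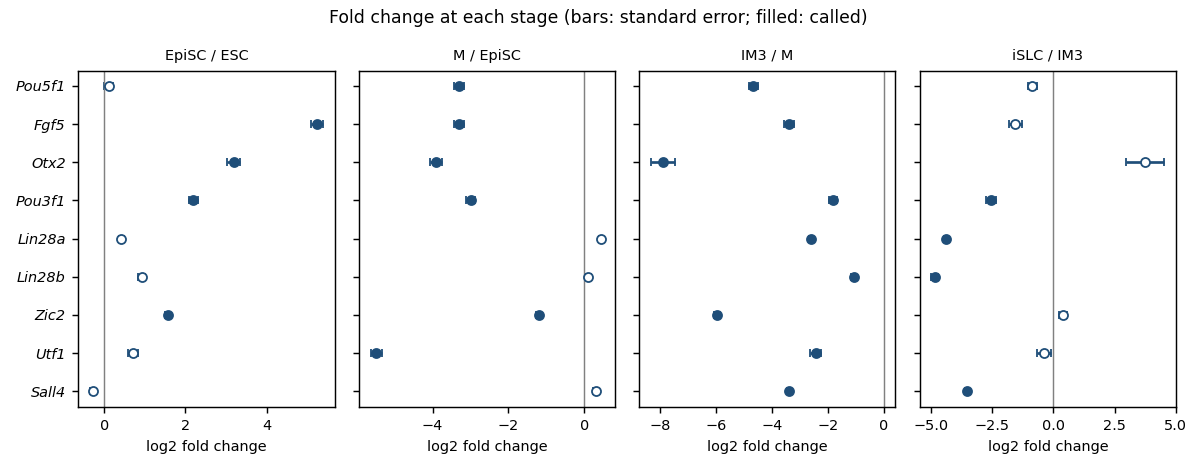
Log2 fold change (horizontal axis) with its standard error for the 9 genes (vertical axis) in 4 comparisons of successive stages, filled where called. In M against EpiSC, 6 genes lie between -5.49 and -1.20 while Lin28a, Lin28b and Sall4 lie between 0.10 and 0.45.

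Retinoic acid is a known repressor of Oct4 in stem cells, and IM3 against IM1 gives its effect in the mesoderm cultures. Of the 9 genes 5 were called lower with retinoic acid and 0 higher, against 3.72% of all genes tested called lower. Pou5f1 stood at 6.95, 9.31 and 8.25 TPM in IM3 against 37.3, 37.4 and 40.5 TPM in IM1, a log2 fold change in normalised count of -2.35 ± 0.16 (SE, n = 3; edgeR adjusted p = 1.33e-12). Utf1 stood at 2.36, 4.26 and 2.09 TPM against 11.6, 13.7 and 13.8 TPM, a log2 fold change of -2.30 ± 0.20. Zic2 changed by -2.30 ± 0.13, Sall4 by -1.57 ± 0.07 and Pou3f1 by -1.35 ± 0.14, and IM1 and IM3 did not overlap for any of the 5. The call of Pou3f1 was lost with an offset for GC content (-0.79) and with limma on log2(TPM + 1) (-0.81).

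The 2 Lin28 genes moved apart with retinoic acid. Lin28a had a log2 fold change of -0.97 ± 0.06 (edgeR adjusted p = 4.2e-13), just under the 2-fold minimum, and Lin28b one of 0.43 ± 0.09 (edgeR adjusted p = 0.000354) in the other direction. The ratio of Lin28a to Lin28b in TPM was 8.18 to 9.58 in the IM1 libraries and 3.15 to 3.64 in IM3, without overlap. It was 10.4 to 10.6 in ESC, 7.11 to 7.73 in EpiSC, 9.31 to 9.45 in M and 2.98 to 3.92 over IM2, IM4 and IM5, the other cultures with retinoic acid. It was 4.19 to 5.16 in iSLC. The log2 ratio differed by -1.43 between IM3 and IM1 (exact two-sided permutation test, p = 0.10, n = 3), the smallest p that 3 libraries against 3 allow.

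Fgf5 and Otx2 were too low in these cultures to be called. Fgf5 stood at 17.6, 20.5 and 45.6 normalised counts in IM1 and 105.0, 99.6 and 87.2 in IM3, a log2 fold change of 1.82 ± 0.28 under the count minimum of 100, and it was called without IM3 replicate 3 or without the count minimum. Otx2 stood at 4.39, 16.2 and 34.8 normalised counts in IM1 and at 1.05 to 2.91 in IM3.

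Activin A, which signals like Nodal and supports the primed state, was added to retinoic acid in IM2 and, with CHIR99021, in IM5. Without CHIR99021 3 genes were called higher and 0 lower, against 2.46% of all genes tested called higher. With CHIR99021 3 genes were again called higher and 0 lower, against 2.63%. They were Pou5f1, Zic2 and Utf1 both times. IM2 is set against IM3 and IM5 against IM4, so these comparisons share no libraries, but the comparisons for retinoic acid and for Activin A without CHIR99021 share the IM3 libraries with opposite sign, and a low IM3 value favours a fall in the first and a rise in the second.

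Pou5f1 stood at 30.0, 28.5 and 30.6 TPM in IM2 against 6.95 to 9.31 TPM in IM3, a log2 fold change of 1.92 ± 0.16 (SE, n = 3; edgeR adjusted p = 2.15e-10). In IM5 it stood at 40.0, 36.4 and 36.8 TPM against 7.94 to 9.67 TPM in IM4, a log2 fold change of 2.22 ± 0.15. Zic2 rose by 2.06 ± 0.13 and 2.37 ± 0.12, and Utf1 by 2.10 ± 0.21 and 2.56 ± 0.20. No library overlapped for these 3 genes in either comparison. Otx2 stood at 47.6 to 68.3 normalised counts in IM2 and 33.8 to 51.7 in IM5, against at most 2.91 in IM3 and IM4 (edgeR adjusted p = 7.13e-07 and 1.83e-06), below the count minimum in every IM culture. Sall4 had log2 fold changes of 0.44 ± 0.07 and 0.67 ± 0.07, past the p and under the 2-fold minimum.

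Lin28a and Lin28b were not called with Activin A. Lin28a had log2 fold changes with Activin A of -0.23 ± 0.06 and -0.37 ± 0.06, and Lin28b of -0.33 ± 0.09 and -0.37 ± 0.09, all past the p and all under the 2-fold minimum, and the libraries of IM2 and IM3 overlapped for Lin28b. Fgf5 differed by -0.14 ± 0.23 and -0.18 ± 0.26 (edgeR adjusted p = 0.684 and 0.609). Pou3f1 had log2 fold changes of 0.55 ± 0.15 in IM2 and 0.13 ± 0.14 in IM5, and the second became -0.51 (adjusted p = 0.0016) with an offset for GC content. Across all genes with a mean count of at least 100 the log2 fold change followed GC content in IM5 against IM4 (Spearman's rho = 0.463, across genes, which are not independent replicates), and the longest Pou3f1 transcript, with 63.9% GC, was richer in GC than 98.9% of genes. The called genes were GC-rich too, with Utf1 above 98.8%, Zic2 above 96.3% and Pou5f1 above 92.5% of genes, and rho was -0.335 in IM3 against IM1 and 0.324 in IM2 against IM3. With the GC offset their log2 fold changes were smaller and all still called. Pou5f1 had -2.14 with retinoic acid and 1.75 and 1.96 with Activin A, Zic2 had -1.98, 1.79 and 2.01, and Utf1 had -1.77, 1.63 and 1.96.

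Other genes of pluripotency were called in the same direction as Oct4 in IM2 and IM5. Of the 13 other primed genes 6 were called higher with Activin A in each of the 2 comparisons, with Sox3 at log2 fold changes of 4.83 and 4.60 and Nodal at 3.33 and 3.12. Of the 6 shared genes 3 and 2 were called higher, with Sox2 at 3.23 and 2.92 and Nanog at 1.39 and 1.43. In IM3 against IM1, 5 of the 13 primed genes were called lower, with Sox3 at -6.41, and 2 of the 6 shared genes, Sox2 at -1.30 and Nanog at -1.03. Markers of other lineages moved too. The summed level of 5 early mesoderm genes was 1.79 to 2.44 TPM in IM3 and IM4, 9.07 to 11.2 TPM in IM1 and 21.6 to 25.4 TPM in IM2 and IM5, and that of 9 endoderm markers was 143.1 to 172.7 TPM in IM3 and IM4 and 218.4 to 367.7 TPM in the other 3 cultures. Red blood cell genes summed to 21.3 to 74.4 TPM in IM3 and IM4 and to 1.62 to 4.54 TPM in IM1, IM2 and IM5. Neural markers, of which Neurog2 was at 0 in every library of IM2, IM4 and IM5, summed to 105.9 to 143.9 TPM in IM2 and IM5, 73.3 to 93.3 TPM in IM3 and IM4 and 64.9 to 70.0 TPM in IM1. Germ cell markers, a lineage that also uses Oct4, summed to 37.6 to 41.7 TPM in IM2 and IM5. They summed to 25.9 to 29.3 TPM in IM3 and IM4 and 58.5 to 66.1 TPM in IM1. Kit had the highest mean of these germ cell markers in each IM culture, at 15.3 to 39.7 TPM. Ddx4 was at 0.18 to 0.31 TPM and Dazl at 0.05 to 0.11 TPM in the same cultures. The parts of these markers in the results on retinoic acid and Activin A were not tested.

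CHIR99021 at this dose was followed by no call among the 9 genes. In IM4 against IM3 0 were called by edgeR, against 0.101% of all genes tested called in either direction, and in IM5 against IM2 0 were called, against 0.235%. Pou5f1 stood at 6.95 to 9.31 TPM in IM3 and 7.94 to 9.67 TPM in IM4, with overlap. The log2 fold changes of the 9 genes in IM4 against IM3 ran from -0.63 ± 0.25 (Fgf5) to 0.31 ± 0.15 (Pou3f1). The unadjusted p was under 0.05 for Fgf5 and Sall4, and for 2517 of all 20839 genes tested. In IM5 against IM2 Zic2 had a log2 fold change of 0.51 ± 0.09 (edgeR adjusted p = 0.000444) and Sall4 one of 0.41 ± 0.07 (edgeR adjusted p = 0.000139). Both were without overlap between libraries and under the 2-fold minimum. The unadjusted p in this comparison was under 0.05 for 6 of the 9 genes, and for 4586 of all 20839 genes tested. Pou5f1, at 36.4 to 40.0 TPM in IM5 and 28.5 to 30.6 TPM in IM2, had a log2 fold change of 0.41 ± 0.13 (edgeR adjusted p = 0.0542), and Utf1 one of 0.38 ± 0.15 (edgeR adjusted p = 0.133), both also without overlap. DESeq2 also called 0 of the 9 in both comparisons. The test of the difference itself, the effect of Activin A with CHIR99021 minus that without, passed for 0 of the 9 genes, against 0.182% of all genes tested. Log2 differences ran from -0.42 ± 0.21 (Pou3f1) to 0.46 ± 0.31 (Utf1). The unadjusted p was under 0.05 for 1 of the 9, Sall4 (0.23 ± 0.09), and for 2191 of all 20839 genes tested.

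**Figure D3:**
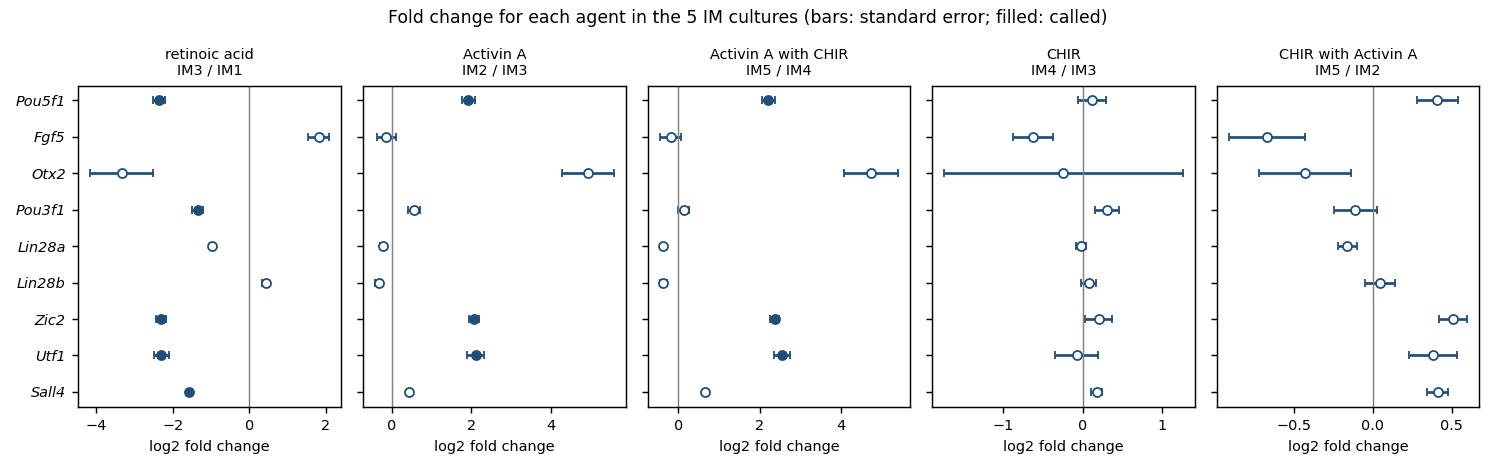
Log2 fold change (horizontal axis) with its standard error for the 9 genes (vertical axis) for retinoic acid, Activin A and CHIR99021 in the IM cultures, filled where called. Pou5f1, Zic2 and Utf1 lie between -2.35 and -2.30 with retinoic acid and between 1.92 and 2.56 with Activin A, and no point is filled for CHIR99021.

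The start of the Pou5f1 gene is shown because that gene fell with retinoic acid and rose with Activin A, beside that of Utf1, whose mean level followed it over the 9 groups (Pearson's r = 0.97, a description). These are RefSeq promoter windows of build GRCm38.p6, from 250 bases before to 50 after the start, on the plus strand, chr17:35505782-35506081 and chr7:139943606-139943905.
Pou5f1: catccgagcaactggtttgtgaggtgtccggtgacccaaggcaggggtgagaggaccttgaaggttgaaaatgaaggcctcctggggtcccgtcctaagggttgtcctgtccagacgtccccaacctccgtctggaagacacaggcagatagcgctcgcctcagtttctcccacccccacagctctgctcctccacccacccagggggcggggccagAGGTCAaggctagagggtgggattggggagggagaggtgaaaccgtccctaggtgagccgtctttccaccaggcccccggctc
Utf1: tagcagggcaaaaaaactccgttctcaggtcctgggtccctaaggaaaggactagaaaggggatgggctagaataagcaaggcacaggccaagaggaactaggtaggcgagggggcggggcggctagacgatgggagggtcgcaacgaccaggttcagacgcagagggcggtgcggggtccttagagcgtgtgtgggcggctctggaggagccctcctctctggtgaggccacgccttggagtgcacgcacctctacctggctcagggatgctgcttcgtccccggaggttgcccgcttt

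Capitals mark AGGTCA, the half-site that retinoid and other nuclear receptors are known to bind. Both strands of all windows were searched for AGGTCA, for the octamer ATGCAAAT and for TAATCC, the site of OTX-type homeodomains, none of which contain each other. AGGTCA was in 16.26% of all 32851 promoter windows, ATGCAAAT in 1.74% and TAATCC in 7.06%. RefSeq windows were at hand for 6 of the 9 genes, 10 windows in all. AGGTCA was in 1 of the 10, the first Pou5f1 window, TAATCC was in 1 of 4 Otx2 windows and in the second Pou5f1 window, and the octamer was in 0 of them.

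In iSLC against IM3 the genes called lower were Lin28a, Lin28b and Sall4, which had changed by less than 2-fold in M, and Pou3f1. Of the 9 genes 4 were called lower and 0 higher, against 8.92% of all genes tested called lower. Lin28b fell from 15.5 ± 1.35 TPM (SD) to libraries at 0.49, 0.57 and 0.54 TPM, a log2 fold change in normalised count of -4.86 ± 0.13 (SE, n = 3; edgeR adjusted p = 8.97e-22). Lin28a fell from 53.4, 51.1 and 52.5 TPM to 2.53, 2.39 and 2.49 TPM, a log2 fold change of -4.39 ± 0.08 (edgeR adjusted p = 2.7e-25). Sall4 fell from 18.7, 17.6 and 17.4 TPM to 1.56, 1.24 and 1.82 TPM, by -3.54 ± 0.08 on the log2 scale, and Pou3f1 changed by -2.54 ± 0.21, from 141.7 ± 21.4 to 24.8 ± 6.17 normalised counts (SD). No library overlapped for these 4 genes. The call of Pou3f1, by then at 0.15 to 0.25 TPM, was lost with limma on log2(TPM + 1) (-0.83).

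Of the 5 genes not called, Pou5f1 had a log2 fold change of -0.86 ± 0.19 (edgeR adjusted p = 0.000215). It passed the p but not the 2-fold minimum, with overlapping libraries. Utf1 had a log2 fold change of -0.38 ± 0.27 (edgeR adjusted p = 0.208). With an offset for GC content these became -1.19 and -1.10 and both were called, and without iSLC replicate 3, the highest of its group in Pou5f1, that gene was at -1.34 and called. Zic2 was at 0.39 ± 0.16 (edgeR adjusted p = 0.0388) and turned to -0.08 with the GC offset. Otx2 was higher in iSLC, at 13.4, 25.7 and 37.1 normalised counts against 1.05, 1.49 and 2.91, below the count minimum. Fgf5 had a log2 fold change of -1.56 ± 0.28 (edgeR adjusted p = 1.5e-05), also below the count minimum, and was called without IM3 replicate 3.

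Red blood cell genes summed to 1.65 to 2.18 TPM in iSLC and 21.3 to 74.4 TPM in IM3, and endoderm markers to 21.6 to 26.1 and 150.2 to 172.7 TPM, and their part in the fall of the Lin28 genes was not tested.

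The let-7 microRNAs themselves are too short for these libraries and were not measured. Their mature sequences hold the seed that pairs with target messages. The precursors that Lin28 proteins bind are not shown. The let-7a, let-7g and let-7i arms and miR-98-5p are printed as examples of the family, with the seed, bases 2 to 8 and the main part that pairs with a target, in capitals. All 9 of the mature RefSeq sequences compared, let-7a to let-7g, let-7i and miR-98, had this seed, over 11 loci.
let-7a-5p: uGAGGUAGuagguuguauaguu
let-7g-5p: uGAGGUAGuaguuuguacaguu
let-7i-5p: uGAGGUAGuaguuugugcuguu
miR-98-5p: uGAGGUAGuaaguuguauuguu

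Lin28a and Lin28b carried exact matches to that seed after their stop codons. In the transcript with the longest such stretch Lin28a had 2 matches in 2775 bases and Lin28b 4 in 4445 bases (GENCODE M21, build GRCm38, sense strand only). Of genes with a stretch within 20% of these lengths, 14.4% and 24.2% had a match. Sall4 had 1 match in 1697 bases, with 11.1% of genes of like length, and the 6 other genes had 0. The 2 Lin28a sites lie on the minus strand at chr4:134005186-134005208 and chr4:134004548-134004570, and the 2 shown of Lin28b on the minus strand at chr10:45381019-45381041 and chr10:45378645-45378667. Capitals mark the match, which is a description and not a measured site.
Lin28a, first: cagcctgttgaaCTACCTCattt
Lin28a, second: atcgccacaaacCTACCTCactg
Lin28b, first: cgggcgggaagtCTACCTCatgc
Lin28b, second: acttgttagtaaCTACCTCtgag

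The genes around Lin28 and let-7 formed a list of 15, of enzymes that process let-7 and messages known as its targets. In iSLC against IM3 7 of the 15 were called lower and 1 higher, against 8.92% of all genes tested called lower and 10.3% higher. Their median log2 fold change was -0.85 against 0.00 over all genes tested. Trim71, an RNA-binding ubiquitin ligase of early embryos and a known let-7 target, changed by -3.19 ± 0.07 and Hmga1, a chromatin protein, by -2.02 ± 0.08. Mycn at -1.76, Hmga2 at -1.66, Arid3a at -1.57, Igf2bp1 at -1.54 and the microRNA-processing enzyme Drosha at -1.17 were also called lower, while the cyclin gene Ccnd2 at 1.23 was called higher. Trim71, Hmga2 and Igf2bp1 had 4 seed matches each after the stop codon, Arid3a 2 and Hmga1 1, and Mycn, Drosha and Ccnd2 had 0. Of genes of like length, 29.5% had a match for Trim71, 15.5% for Hmga2, 33.7% for Igf2bp1, 15.7% for Arid3a and 8.1% for Hmga1. Igf2bp2 and Igf2bp3, which were not called in iSLC, had 1 match each.

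The counts at the other stages are given as a description. In M against EpiSC, where Lin28a and Lin28b changed by less than 2-fold, 4 of the 15 were called higher and 0 lower, against 6.79% of all genes tested called higher and 7.72% lower, with Hmga2 at 3.13 ± 0.05 and Arid3a at 2.05 ± 0.05. In IM3 against M, where Lin28a changed by -2.61, 2 were called lower, Trim71 at -1.40 and Hmga1 at -1.32, against 5.66% of all genes tested. Retinoic acid was followed by 1 called fall, that of Trim71 at -1.15 ± 0.06, against 3.72% of all genes tested called lower. Activin A was followed by 0 calls, against 3.8% (IM2 against IM3) and 4.09% (IM5 against IM4) of all genes called in either direction. CHIR99021 was also followed by 0 calls, against 0.101% (IM4 against IM3) and 0.235% (IM5 against IM2). In EpiSC against ESC 1 was called lower, Igf2bp2 at -1.41, against 4.32% of all genes tested called lower.

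**Figure D4:**
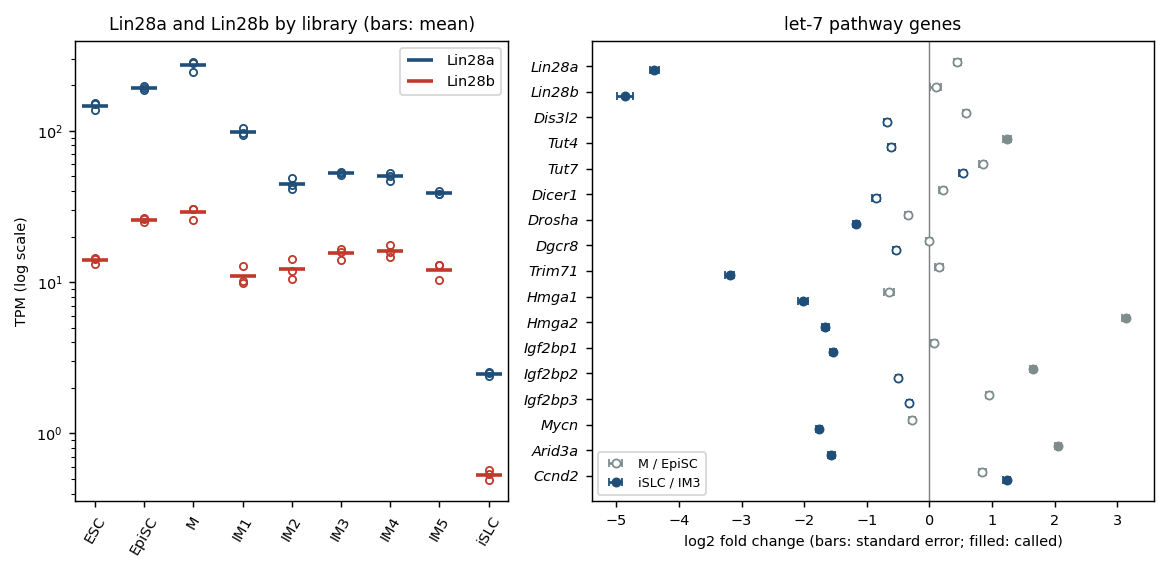
Left, TPM on a log scale of Lin28a and Lin28b in each library by group, with bars for means; right, log2 fold change with its standard error of both genes and 15 genes of the let-7 pathway in M against EpiSC and iSLC against IM3, filled where called. Lin28a and Lin28b lie at 0.45 and 0.10 in M against EpiSC and at -4.39 and -4.86 in iSLC against IM3, where 7 of the 15 pathway genes are also called lower.

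Relatives of these genes were measured beside them. Among POU genes with a mean of at least 1 TPM in a group, Pou2f1 and Pou6f1 stood at 18.4 and 18.5 TPM in EpiSC, Pou2f2 and Pou2f3 at 6.63 and 6.61, Pou4f3 at 1.22 and Pou4f1 at 1.00, against 1670 TPM for Pou5f1. In M Pou2f2, Pou2f3 and Pou6f1 were called lower, and Pou6f1 was called higher in iSLC, at a log2 fold change of 2.86 ± 0.07. Otx1 reached 2.71 TPM, in M.

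Zic5, a relative of Zic2, stood at 29.6 TPM in EpiSC, and was called in the same directions as Zic2 in the IM cultures. It changed by -1.61 with retinoic acid and by 1.35 and 1.57 with Activin A. Zic1 reached 2.59 TPM, in iSLC. Of the SALL genes, Sall1 at 55.7 TPM in M and Sall3 at 39.5 TPM in M fell by IM3, with log2 fold changes of -2.85 and -6.05, and Sall2, at 40.7 TPM in IM3, was called higher there at 1.22. Sall3 changed by -4.11 with retinoic acid and 2.43 and 2.55 with Activin A, where Sall4 had -1.57, 0.44 and 0.67. Fgf4, the other FGF ligand of early pluripotent cells in the list, ran against Fgf5 in EpiSC at -1.66 ± 0.08.

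Over the 9 group means of log2 CPM, counts scaled by library size, the correlation between members was highest for Lin28a with Sall4 (Pearson's r = 0.975), Pou5f1 with Utf1 (0.97), Otx2 with Zic2 (0.955) and Pou5f1 with Zic2 (0.953), and lowest for Otx2 with Lin28b (0.341). These are descriptions over 9 points that share 1 series of stages. Among 15298 genes with a mean normalised count of at least 100 in a group, the 3 most like Pou5f1 were Elmo1 (0.994), Slc2a5 (0.993) and Kcnip2 (0.993), those most like Fgf5 were Gtpbp1 (0.973), Xkr6 (0.968) and Epha1 (0.967), and those most like Otx2 were Trim67 (0.979), 2610035F20Rik (0.975) and Gm5320 (0.974). Pou3f1 was followed by Fam83f (0.998), Ears2 (0.987) and Marveld3 (0.986), Zic2 by Olig1 (0.993), Zic5 (0.989) and Igfbpl1 (0.989), and Utf1 by Rpgrip1 (0.994), Ctbp2 (0.991) and Amz1 (0.986). Lin28a was followed by Atf7ip2 (0.995), Ripk4 (0.988) and Pus7 (0.987), Lin28b by Tcf7 (0.992), Snrpd3 (0.991) and Snrpd1 (0.991), and Sall4 by F2rl1 (0.99), Ripk4 (0.989) and Taf1d (0.988).

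In the annotation the 9 genes lie on 7 chromosomes, with Lin28a and Pou3f1 both on chromosome 4 and Otx2 and Zic2 both on chromosome 14. Pou5f1 is at chr17:35506018-35510772, Lin28a at chr4:134003330-134018841 and Lin28b at chr10:45376620-45486395 (GRCm38). Exons of Pou5f1, Otx2, Pou3f1, Lin28a and Sall4 share bases with a gene on the other strand, Gm19553, Otx2os1, Gm2164, Gm13061 and Gm14261 in that order, and reads of the overlap cannot be told apart without strand. Otx2 also shares 168 bases with Gm49154 on its own strand, a model not used here. None of the 5 partners on the other strand was given more than 27.9 expected counts in any library. The share of 75-base runs, the read length, found in a transcript of another gene was 11.4% for Pou5f1, 6.8% for Pou3f1, 4.4% for Sall4 and 0.9% for Lin28a, in each case in that partner, and 0.0% for the other 5 genes.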

How the data were processed

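Per the labels and the study's methods, paired-end reads of 75 bases (TruSeq v2, strand not stated) were trimmed with cutadapt 1.9.1, aligned with STAR 2.5.2a to GRCm38 and summed per gene by RSEM 1.3.0, without pooling. The deposited files give expected counts, which were not normalized between libraries, TPM, which the authors' RSEM run scaled by effective length and to 1 common total per library, and effective lengths in bases, used only as an offset. Levels are the deposited TPM.

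Expected counts were rounded and tested with edgeR 4.0.16 (R 4.3.3; TMM, filterByExpr, quasi-likelihood) in 1 model of 27 libraries, with thresholds after the study's methods, on a script tested on simulated data. Adjusted p-values are Benjamini-Hochberg over the 20839 genes tested. Alternatives were DESeq2 1.42.0 and its size factors, limma 3.58.1 on log2(TPM + 1) and log2(TPM + 0.1), offsets for length and GC content, other filters and thresholds, only the groups compared, a replicate block and each library left out. The members and gene lists were chosen with earlier results of these data known. All members were named, of each list the 2 called genes with the largest rise and the 2 with the largest fall, paralogs at 1 TPM or more in a group, overlapping genes and the 3 most alike genes. Of the genes this rule names, 1 is not reported here. The let-7 pathway genes called in iSLC beyond these, Igf2bp3, and the Sertoli markers were named after their values were seen.

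Labels share replicate numbers 1 to 3 between groups without saying what a number marks. Deviations from the group means correlated between same-numbered libraries at 0.194, 0.178 and 0.206 in IM4 against IM3, and not above 0.1 for every number in any other comparison. Its values in the text and figure come from the fit without a replicate block, so the pairing was not used there. With a replicate block IM4 against IM3 gave 22 called genes against 21.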

Additional observations from a re-analysis of the deposited data

How the results depend on the processing

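The direction and call of most member results held, counted per gene, comparison and setting. In the alternatives other than leaving out a library, 780 results had the same direction and call, 10 turned direction, 3 gained a call and 6 lost one. With a library left out 569 had the same direction and call, 21 turned direction, 4 gained a call and 0 lost one. Without the count minimum, all genes called numbered 3826 (EpiSC against ESC), 5842 (M against EpiSC), 5402 (IM3 against M), 2497 (IM3 against IM1), 1509 (IM2 against IM3), 36 (IM4 against IM3), 1667 (IM5 against IM4), 101 (IM5 against IM2) and 7015 (iSLC against IM3), against 1682, 3023, 3108, 1321, 792, 21, 852, 49 and 4011, and 1 of the 9 genes was called higher in IM3 against IM1 and 1 in iSLC against IM3. With limma on log2(TPM + 1) they numbered 494 (IM2 against IM3), 10 (IM4 against IM3), 524 (IM5 against IM4) and 15 (IM5 against IM2), and IM4 against IM3 gave 12 on log2(TPM + 0.1), 11 with only the groups compared and 12 to 25 with a library left out (12 without IM3 replicate 1). Fgf5 in IM2 against IM3 turned to 0.0586 with the length offset, 0.00943 on log2(TPM + 1) and 0.000338 on log2(TPM + 0.1), and Lin28b in IM5 against IM2 to -0.00737 and -0.0077 with limma. The GC offset, chosen after seeing the data, turned Pou5f1 in EpiSC against ESC to -0.000317, Lin28b in M against EpiSC to -0.125, Pou3f1 in IM5 against IM4 to -0.509, Zic2 in iSLC against IM3 to -0.0809 and Lin28b in the interaction to 0.0711. It ended the calls of Lin28b in IM3 against M (-0.98) and Pou3f1 in IM3 against IM1 (-0.786), and Lin28b in IM3 against M was also not called with limma (-0.854 and -0.891). Lin28a in IM3 against IM1 was called with the length offset (-1.01) and without IM1 replicate 2. With a library left out, log2 fold changes ran from -0.333 to 0.0258 for Fgf5 in IM2 against IM3 and from -0.0473 to 0.162 for Lin28b in IM5 against IM2. In IM4 against IM3 they ran from -0.0852 to 0.0339 for Lin28a, -0.0139 to 0.139 for Lin28b, -0.699 to 0.212 for Otx2, -0.0204 to 0.213 for Pou5f1 and -0.286 to 0.263 for Utf1. In the interaction they ran from -0.227 to 0.159 for Fgf5, -0.115 to 0.0944 for Lin28b and -0.642 to 0.269 for Otx2. The number of the 9 genes called higher in IM3 against IM1 ran from 0 to 1, being 1 without IM3 replicate 3. The causes were not tested. The replicate block changed no call of the 9 genes, and mean correlations of deviations were 0.019 for the same number and -0.009 for other numbers. The folds of Otx2 against IM3 rest on 1.05 to 2.91 normalised counts per library there.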
